A study of Mus musculus with 18 samples.

Results

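AA465934 is a spliced noncoding RNA of mouse chromosome 11 that carries the small nucleolar RNA Snord7 in an intron. It is 1 of the 24062 gene symbols counted in whole liver, kidney and lung of mice with induced cyclin E1 (CCNE-TA, which carry a Tet-inducible Ccne1 transgene and the rtTA activator) and of control mice (TA, which carry rtTA alone). It was chosen by its higher counts and fold changes in CCNE-TA than in TA libraries, values of the same contrast, so its difference between the genotypes is described here without a test. All mice were C57BL/6, were given doxycycline starting at 3 weeks of age and were 4 months old when killed. There were 6 groups, 1 per tissue and genotype, with 3 libraries in each. The promoter that drives rtTA, the sex of the mice and whether libraries with the same number came from 1 mouse are not given in the sources used here. The level of Xist, the noncoding RNA of the inactive X chromosome, was high in some libraries of each group and low in others (values below). TA library 2 was low in Xist in liver and high in kidney and lung, so by this level these did not all come from 1 mouse. The p-values measure the spread between these libraries, which may be technical in part.

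Small nucleolar RNAs of the box C/D class guide the methylation of riboses in ribosomal RNA. Most are cut out of introns, and the spliced exons of a noncoding host are often short, not conserved and turned over by nonsense-mediated decay. Cyclin E1, the product of Ccne1, drives cells into S phase together with CDK2, and p53 raises cell cycle arrest and apoptosis genes when DNA is damaged.

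AA465934 lies on the plus strand at chr11:83291699-83294632 in GENCODE M21 (build GRCm38, the same as mm10), where it has 5 transcripts. The longest form with both introns removed has 3 exons and 383 nt. Its first 2 exons (135 and 131 nt) are shown because they lie outside the overlapping gene AI450353, with the second exon in capitals:

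AA465934 exons 1 and 2: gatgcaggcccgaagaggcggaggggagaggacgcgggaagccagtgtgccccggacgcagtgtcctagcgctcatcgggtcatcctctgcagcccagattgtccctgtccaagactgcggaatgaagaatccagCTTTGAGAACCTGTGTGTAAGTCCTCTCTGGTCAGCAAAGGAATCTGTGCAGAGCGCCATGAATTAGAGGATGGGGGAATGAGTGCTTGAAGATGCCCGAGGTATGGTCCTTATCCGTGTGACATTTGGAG

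Snord7 (chr11:83294304-83294400, plus strand, 97 nt) sits in the last intron of that transcript, which spans 2417 bp, and ends 114 bp before the last exon. Its box C (ATGATGA) and box D (CTGA), the pair of motifs that binds the core proteins of this class, are in capitals:

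Snord7: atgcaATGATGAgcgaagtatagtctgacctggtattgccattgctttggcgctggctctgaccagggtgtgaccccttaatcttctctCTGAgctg

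Snord7 had a count of 0 in all 18 libraries, which allows a level of up to 0.0193 to 0.147 CPM (a count scaled to 1000000 counts per library), for counting error only. The values below therefore describe the host's exons and not the small RNA.

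The promoter is shown because cyclin E1 with CDK2 acts on the RB and E2F switch and because p53 targets are compared below. The RefSeq window of 300 bases (GRCm38.p6, chr11:83291449-83291748, plus strand) starts 250 bases before the gene start, and its letters for CCAAT (read on the minus strand, as ATTGG), the E-box CACGTG and the E2F form TTCCCGC (minus strand, as GCGGGAA) are in capitals:

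AA465934 promoter: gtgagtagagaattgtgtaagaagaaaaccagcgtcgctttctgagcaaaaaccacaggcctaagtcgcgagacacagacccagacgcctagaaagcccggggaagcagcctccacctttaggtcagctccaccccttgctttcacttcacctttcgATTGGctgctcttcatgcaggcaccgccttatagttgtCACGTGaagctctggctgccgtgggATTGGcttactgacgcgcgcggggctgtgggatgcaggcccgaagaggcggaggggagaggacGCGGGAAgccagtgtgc

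Both strands were searched, and no match overlapped another kind. CCAAT began at -93 and -30 from the gene start, CACGTG at -55 and TTCCCGC at 33. Of the 32851 RefSeq promoter windows of this length, 37.4% held CCAAT, 7.2% held CACGTG and 4.6% held TTCCCGC. The letters of a p53 decamer, present in 8.4% of windows, were not found in this one, nor were the E2F forms TTTGGCGC (0.5%) and TTTCGCGC (0.3%) or the cell cycle homology forms TTTGAA (17.9%) and TTCGAA (1.6%). These matches describe letters and not binding.

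**Figure D1:**
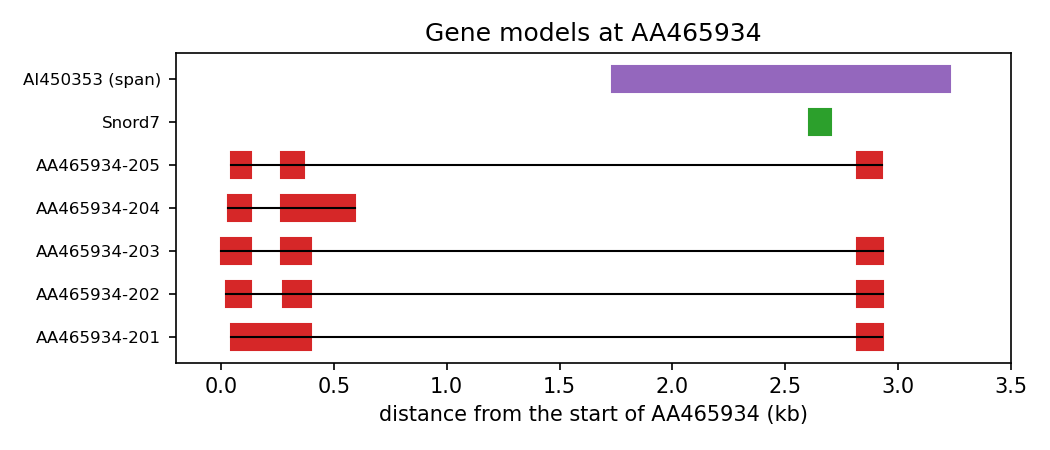
Gene models at AA465934, as distance in kb from its start, with exons as boxes and introns as lines for the 5 GENCODE transcripts, and with Snord7 and the span of AI450353 as boxes. Snord7 lies in the long intron and inside the span of AI450353.

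Levels are given in CPM scaled by the TMM method within a tissue. In liver AA465934 stood at 5.59, 4.95 and 4.63 CPM in the CCNE-TA libraries 1 to 3 and at 0.239, 0.351 and 0.341 CPM in the TA libraries 1 to 3. The means were 5.05 ± 0.486 and 0.310 ± 0.0622 CPM (SD, n = 3 per group), 16.3-fold apart, with a log2 fold change of 4.03 ± 0.34 (SE). The lowest CCNE-TA library was far above the highest TA library. The control values rest on 15, 13 and 12 reads, against 220, 211 and 151 in CCNE-TA, so the liver ratio has the thinnest denominator of the 3 tissues.

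In kidney the CCNE-TA libraries stood at 13.3, 17.4 and 14.99 CPM and the TA libraries at 2.66, 2.63 and 2.64 CPM. The means of 15.2 ± 2.05 and 2.64 ± 0.0191 CPM (SD, n = 3 per group) were 5.77-fold apart, with a log2 fold change of 2.53 ± 0.23 (SE). The 3 control kidneys were nearly equal, and again no library of one genotype reached the other. In lung the CCNE-TA libraries stood at 4.77, 10.3 and 11.0 CPM and the TA libraries at 2.14, 2.54 and 0.543 CPM. The means of 8.68 ± 3.40 and 1.74 ± 1.06 CPM (SD, n = 3 per group) were 4.98-fold apart, with a log2 fold change of 2.31 ± 0.62 (SE). Lung had the widest spread, with CCNE-TA 1 and TA 3 each below the other libraries of their group, but the groups did not overlap.

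**Figure D2:**
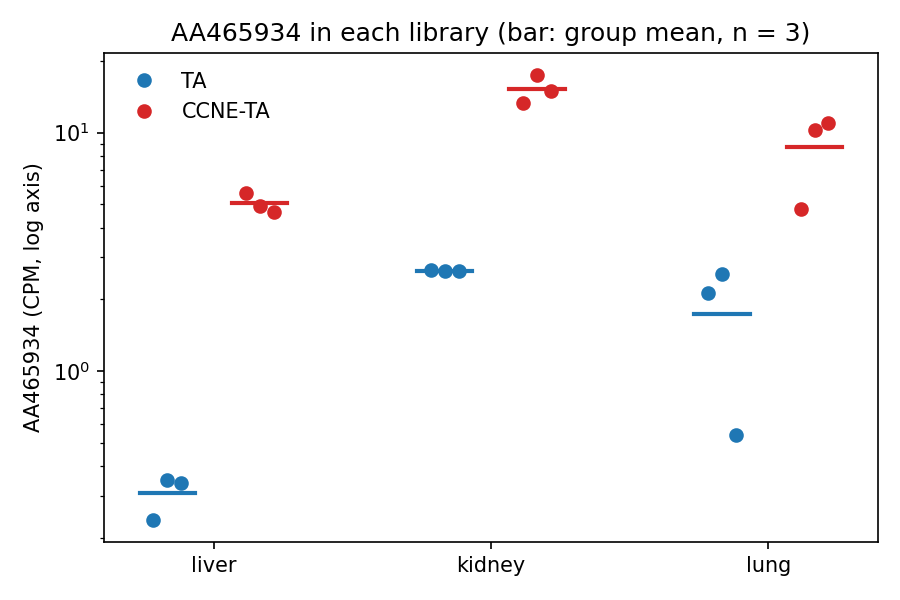
Level of AA465934 (log axis, CPM) in the 18 libraries, grouped by tissue, with TA in blue, CCNE-TA in red and the group mean as a bar (n = 3 per group). The CCNE-TA libraries lie above all TA libraries of their tissue, and liver TA libraries stand at 0.239 to 0.351 CPM; each tissue is scaled on its own, so levels are to be compared within a tissue.

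A complete separation with CCNE-TA higher was common in liver, where 23.2% of the 13811 tested genes showed it, and less so in kidney (3.04% of 15247) and lung (3.3% of 16823). It held in all 3 tissues for 51 of the 13325 genes tested in each, or 0.383%. With a log2 fold change of at least 2 in every tissue besides, it held for 2 genes (0.015%), AA465934 and Ccne1. By log2 fold change AA465934 ranked 47th of 13811 in liver, 28th of 15247 in kidney and 51st of 16823 in lung. The gene was chosen by these same fold changes, and the cut of 2 lies just below its lung value of 2.31. The count of 2 genes and the ranks therefore follow from that choice and test nothing. The adjusted p from edgeR's quasi-likelihood test, which was among the values that led to the choice of this gene and tests nothing here, was 0.000809 in liver, 0.0111 in kidney and 1.0 in lung. The other fits differ in which tissues fall under 0.05: 1 edgeR fit of the 18 libraries together gave 0.0321 for lung, 0.134 for kidney and 0.000153 for liver, while DESeq2 gave 0.00905 for lung.

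Lung TA 3 and CCNE-TA 1 had the lowest mean correlation with their own group over genes (0.950 and 0.944). Without these 2 libraries the lung log2 fold change of AA465934 was 2.19 ± 0.18 (SE), and without TA 3 alone it was 1.88 ± 0.45. In liver the short transcripts as a class were higher in CCNE-TA: the 77 tested genes under 500 nt had a median log2 fold change of 1.29, against 0.02 for all genes. With offsets for transcript length and GC content, the log2 fold change of AA465934 was 3.31 in liver, 2.57 in kidney and 2.42 in lung. The part of transcript length in the liver value beyond these offsets was not tested.

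Markers of other cells were read in the same libraries. Alb and the other hepatocyte markers (8 genes) summed to at least 92622 CPM in every liver library, the 8 kidney markers to at least 19557 CPM in every kidney library and the 8 lung markers to at least 50743 CPM in every lung library. The kidney markers summed to 16.3 to 33.8 CPM in liver CCNE-TA, to 17.7 CPM in liver TA 1 and to 0.0540 and 0.0569 CPM in TA 2 and TA 3. Against TA 1 alone, which held kidney reads like the CCNE-TA livers, the liver log2 fold change of AA465934 was 4.37. The 8 pancreas markers summed to 9.14 to 14.3 CPM in liver CCNE-TA, where Prss2 and Try4 were at 0, and to 22.7 to 213 CPM in liver TA. The 8 bile duct markers summed to 253 to 355 CPM in liver CCNE-TA and to 59.1 to 62.5 CPM in liver TA, and their part in the liver difference was not tested. In lung the hepatocyte markers summed to 63.8 to 289.7 CPM in CCNE-TA and to 465 to 2408 CPM in TA, highest in TA 3, the lung library lowest in AA465934. The lung markers in kidney summed to 32.6 to 48.8 CPM in CCNE-TA and to 60.04 to 164 CPM in TA. Neither pair of groups overlapped, and the part of these markers in the lung and kidney values was not tested. In bulk tissue, more cells that express a gene and more RNA per cell cannot be told apart. Xist stood at 781, 660 and 3.10 CPM in liver CCNE-TA 1 to 3 and at 402, 0.270 and 0.227 CPM in liver TA 1 to 3. The liver groups were thus not balanced for it, and TA 1 was the only control liver high in Xist. In kidney and lung, library 3 of each genotype held 0.370 to 2.73 CPM and the other libraries 431 to 1244 CPM. With the level of Xist as a covariate the log2 fold change of AA465934 was 4.11 in liver, 2.53 in kidney and 2.54 in lung.

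The order of AA465934 over the 6 groups was read with 1 scaling over all 18 libraries. It stood at 0.538 ± 0.103 CPM in liver TA, 1.19 ± 0.731 in lung TA, 2.23 ± 0.00778 in kidney TA, 6.00 ± 2.39 in lung CCNE-TA, 8.71 ± 0.994 in liver CCNE-TA and 12.8 ± 1.88 in kidney CCNE-TA (SD, n = 3 per group). Liver TA and lung TA overlapped, and each other group lay apart from its neighbour in the order. The order of the liver and lung CCNE-TA groups is not fixed, since scaling within each tissue gave 5.05 CPM in liver and 8.68 CPM in lung. Ccne1 on the scale of all 18 libraries stood at 61.1 ± 21.5 CPM in lung CCNE-TA, 492 ± 113 in liver CCNE-TA and 603 ± 174 in kidney CCNE-TA (SD, n = 3 per group), where liver and kidney overlapped. The log2 fold change of AA465934 in kidney minus that in liver was -1.51 ± 0.63 (SE), in lung minus liver -1.72 ± 0.62, and in lung minus kidney -0.21 ± 0.59, given with no test.

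Among control libraries, where cyclin E1 was not induced, the mean of AA465934 was lowest in liver, while the lowest single library was lung TA 3. In a fit of the 9 TA libraries it stood at 2.19, 2.18 and 2.17 CPM in kidney TA 1 to 3 and at 0.410, 0.597 and 0.569 CPM in liver TA 1 to 3. Kidney exceeded liver by 2.06 ± 0.57 on the log2 scale (SE, edgeR adjusted p = 0.00879), with no overlap, in a comparison where 64.9% of 16578 tested genes passed. The TA counts also enter the fold changes that chose this gene, so the comparisons of control tissues are not free of that choice. Lung TA 1 to 3 stood at 1.43, 1.70 and 0.357 CPM. Lung minus liver was 1.16 ± 0.56 (edgeR adjusted p = 0.0828, where 71.5% of genes passed), and without lung TA 3 it was 1.59 with an adjusted p of 0.00451. Lung minus kidney was -0.90 ± 0.52 (edgeR adjusted p = 0.161, where 60.6% of genes passed), so a difference between these tissues was not shown beyond the spread.

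Ccne1, the induced gene, was higher in CCNE-TA in every tissue with no overlap. In liver Ccne1 stood at 298, 210 and 353 CPM in CCNE-TA and 2.82, 2.05 and 2.53 CPM in TA, a log2 fold difference of 6.86 (adjusted p = 0.00012 in edgeR). The kidney values were 897, 772 and 485 CPM against 2.58, 2.02 and 1.57 CPM, a log2 fold difference of 8.45 (adjusted p = 7.87e-05 in edgeR). The lung values were 125, 65.7 and 75.2 CPM against 3.72, 6.02 and 1.04 CPM, a log2 fold change of 4.61 that did not pass edgeR (adjusted p = 0.897) and passed DESeq2 (adjusted p = 1.01e-12). The lung CCNE-TA library with the most Ccne1, CCNE-TA 1, had the least AA465934 of its group, and the lung TA library with the least Ccne1, TA 3, had the least AA465934. For each tissue a two-sided exact permutation test of Ccne1 gave p = 0.1, and 3 against 3 libraries can give no smaller p.

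Over the 18 libraries, with each tissue's mean removed, the log2 CPM of AA465934 was most like that of Ccne1 among 13324 partner genes (Pearson r = 0.93). The next in order were Bst2 (0.89), which encodes the interferon-induced membrane protein tetherin, Hmgb2 (0.88), a chromatin protein of dividing cells, Trim59 (0.87), Esco2 (0.87), which acetylates cohesin in S phase, and the proliferation marker Mki67 (0.87). Gm11974, the table's name for the noncoding snoRNA host Snhg15, reached 0.87, and Psrc1, a spindle gene on the p53 target list, 0.86. Only 33 partners (0.248%) exceeded 0.8, and the median over all partners was -0.00. These values are a description: the libraries fall in 2 genotype clusters, the genotype difference chose the gene, and all points share libraries and depth.

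**Figure D3:**
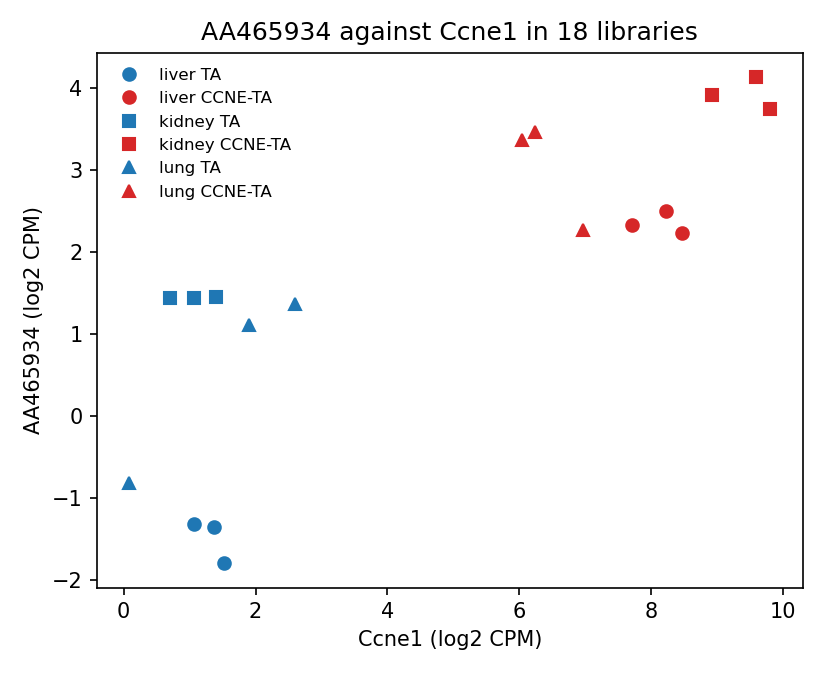
AA465934 against Ccne1 in 18 libraries, both in log2 CPM scaled within a tissue, with tissues as shapes and genotypes as colours (TA blue, CCNE-TA red). The libraries form a TA cluster and a CCNE-TA cluster in each tissue, and lung TA 3 is low on both axes.

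The variation inside the 6 groups was not used to choose the gene, so it was tested, with all 46656 orders of the libraries within groups and with adjustment over 56 relations. Within groups AA465934 and Ccne1 gave a Pearson r of 0.52 over 18 libraries (exact p = 0.418, adjusted p = 0.732) and a Spearman rho of 0.15 (exact p = 0.645, adjusted p = 0.802). The r rests on lung: without the 2 libraries farthest from the median of Ccne1, lung TA 2 and TA 3, it was -0.37, without lung TA 3 alone -0.47, and in liver and kidney alone -0.27. A relation of AA465934 to the level of Ccne1 beyond the genotype was thus not shown.

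The genes most like AA465934 within groups were others: Carf (r = 0.94), Ift81 (0.92), Gm5617 (0.91), Gt(ROSA)26Sor (0.90), the noncoding RNA of the Rosa26 locus, and 1300002E11Rik (0.90). Carf stood at 2.84, 2.77 and 2.64 CPM in liver CCNE-TA and at 2.58, 2.65 and 2.53 CPM in liver TA. In lung it stood at 5.82, 8.17 and 9.65 CPM in CCNE-TA and at 8.32, 9.34 and 5.08 CPM in TA, lowest in CCNE-TA 1 and TA 3 as AA465934 was. Carf did not separate the genotypes in any tissue, with log2 fold changes of 0.09, 0.03 and 0.05 in liver, kidney and lung (edgeR adjusted p of 0.824, 0.999 and 1.0).

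The p53 targets are a list of 40 genes, all tested in each tissue. In liver 19 were higher and 2 lower in CCNE-TA at an edgeR adjusted p under 0.05, where 13.7% of all tested genes were higher and 14.8% lower, and the list's median log2 fold change was 0.95 against 0.02 over all genes. Psrc1 stood at 5.51, 9.87 and 19.8 CPM in CCNE-TA livers and at 0.0318, 0.216 and 0.284 CPM in TA livers, with a log2 fold difference of 6.15 ± 0.77 (SE, adjusted p = 0.00336 in edgeR). Phlda3, which restrains AKT signalling, stood at 12.8, 22.3 and 16.7 CPM against 1.26, 2.05 and 1.34 CPM, a log2 fold difference of 3.48 ± 0.31 (adjusted p = 0.00105 in edgeR). Both separated the genotypes without overlap in liver. Ckap2, a spindle gene, rose by 3.82, Ddit4l, an mTORC1 inhibitor, by 3.59, the TNF receptor family gene Eda2r by 3.58, the death receptor gene Tnfrsf10b by 2.67 and the apoptosis gene Bax by 1.75 on the log2 scale (edgeR adjusted p of 0.00197, 0.00113, 0.00285, 0.00335 and 0.00137). The 2 that fell in liver, named after their values were seen, were Triap1 (-0.95, edgeR adjusted p = 0.0175), which counters apoptosis, and the DNA repair gene Xpc (-0.79, edgeR adjusted p = 0.0184). Counts of p53 targets against liver TA 1 alone would rest on 1 control library and are not given.

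Cdkn1a encodes the CDK inhibitor p21 and is the best known p53 target. In liver it stood at 105, 156 and 51.0 CPM in CCNE-TA and at 22.7, 11.3 and 2.62 CPM in TA, a log2 fold difference of 3.09 ± 0.84 (SE, adjusted p = 0.0416 in edgeR). With the length and GC offsets the liver call was lost (2.78, edgeR adjusted p = 0.0651). The kidney values of Cdkn1a were 135, 152 and 58.2 CPM against 14.9, 19.8 and 8.68 CPM, a log2 fold difference of 2.99 ± 0.42 (adjusted p = 0.156 in edgeR). Those of lung were 258, 323 and 76.97 CPM against 157, 112 and 205 CPM, a log2 fold difference of 0.47 ± 0.51 (adjusted p = 1.0 in edgeR). The genotypes did not overlap in liver and kidney and overlapped in lung. The kidney libraries of the same number varied together, and with the number as a block Cdkn1a passed (edgeR adjusted p = 0.00149). Kidney library 3 was lowest in both Cdkn1a and Xist in each genotype, so the block also holds the Xist difference, whose part was not tested.

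In kidney 0 of the 40 p53 targets passed edgeR (12 were higher at an unadjusted p under 0.05, 4 passed DESeq2, and 1 passed with the block). Those that passed DESeq2 were Eda2r (log2 fold change 4.19), Psrc1 (3.96), Cdkn1a (2.99) and Phlda3 (1.17). Their DESeq2 adjusted p were 1.82e-08, 1.85e-10, 8.19e-11 and 0.000725. All 4 separated the genotypes in kidney, where 3.04% of all tested genes did so with CCNE-TA higher. Over all genes 0.0131% were called higher by edgeR, 0.127% by DESeq2 and 0.0197% with the block, and 324 of 15247 differed in either direction at an unadjusted p under 0.05. The list's median log2 fold change was 0.26 against 0.00 for all genes. In lung 0 passed edgeR (2 higher at an unadjusted p under 0.05, and 1, Psrc1, by DESeq2). Over all genes 0.00594% were called higher by edgeR and 0.0907% by DESeq2, and 614 of 16823 differed in either direction at an unadjusted p under 0.05. The list's median was 0.01 against 0.02. Psrc1 in lung stood at 3.99, 2.76 and 4.48 CPM in CCNE-TA and at 1.89, 1.43 and 1.51 CPM in TA, a log2 fold difference of 1.22 ± 0.30 (adjusted p = 1.0 in edgeR, DESeq2 adjusted p = 0.0103). It was the p53 target with the highest log2 fold change in lung, and its groups did not overlap.

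Over the 18 libraries with tissue means removed, the r of AA465934 with the p53 targets had a median of 0.54 and ran from -0.59 to 0.86, with Psrc1 and Ckap2 above 0.8. The 15 mitosis and proliferation genes had a median of 0.77 and the 15 G1/S genes one of 0.53, with points that share libraries, depth and genotype. Within groups the median over the p53 targets was 0.04, and 2 of 40 relations passed adjustment, Dcxr (r = 0.70, exact p = 0.000664, adjusted p = 0.0186) and Epha2 (r = -0.35, exact p = 0.000472, adjusted p = 0.0186). Their signs were opposite, both were named after their values were seen, and neither passed with Spearman's rho (0.65 and -0.55, exact permutation, adjusted p of 0.123 and 0.0948). With a replicate block, which leaves fewer orders of the libraries, 0 of the 40 passed. Without the 2 libraries farthest from the median of each gene, the r was 0.69 for Dcxr and -0.40 for Epha2. For Cdkn1a the within-group r was -0.30 (exact p = 0.18, adjusted p = 0.438).

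Genes that regulate p53 and noncoding targets of p53 are short lists. Of the 8 regulators, Chek1 (2.93, edgeR adjusted p = 0.00859) and Trp53 itself (0.77, edgeR adjusted p = 0.0138) were higher and Usp7 (-0.60, edgeR adjusted p = 0.0261) was lower in liver CCNE-TA on the log2 scale, where 13.7% of all tested genes were higher and 14.8% lower. Usp7 did not pass with the replicate block (edgeR adjusted p = 0.0638) or with the length and GC offsets (-0.35, edgeR adjusted p = 0.13). Of the 4 noncoding targets 3 were tested in liver, and those 3 were higher: Trp53cor1 by 3.51, Neat1 by 3.20 and Pvt1 by 2.31 (edgeR adjusted p of 0.00839, 0.00278 and 0.0157). Neat1, the scaffold of paraspeckles, stood at 760, 334 and 957 CPM in CCNE-TA livers and at 83.1, 64.1 and 75.6 CPM in TA livers. In kidney and lung its log2 fold change was -0.00 and 0.17 (edgeR adjusted p of 0.999 and 1.0). In those tissues 0 of the 8 regulators passed edgeR, and 0 of the noncoding targets, of which edgeR tested 2 in kidney and 3 in lung (0 higher at an unadjusted p under 0.05, 0 passing DESeq2). Trp53cor1, not tested by edgeR in kidney and named after its values were seen, stood there at 0.594, 0.781 and 0.320 CPM in CCNE-TA and at 0.178, 0.0482 and 0.0895 CPM in TA, without overlap. DESeq2, in which 1 noncoding target was higher in kidney at an unadjusted p under 0.05, gave it a log2 fold change of 2.49 (adjusted p = 1.0).

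AA465934 was next set beside the other noncoding hosts of small nucleolar RNAs, a list of 20 genes in the table that does not hold AA465934. In liver 16 of the 19 tested were higher in CCNE-TA, 0 were lower and the median log2 fold change was 1.41, with a range from 0.46 to 3.21. All were below the 4.03 of AA465934, which was chosen by its fold changes, so that order tests nothing. Over all tested liver genes 13.7% were higher and 14.8% lower, with a median of 0.02. The host left untested by edgeR, Snhg9, reached 4.79 in DESeq2, where AA465934 reached 4.04. Gm11974 (Snhg15) stood at 7.997, 6.05 and 10.8 CPM in CCNE-TA livers and at 1.61, 1.43 and 1.11 CPM in TA livers, a log2 fold difference of 2.58 ± 0.31 (SE, adjusted p = 0.00277 in edgeR). Snhg1, host to a cluster of box C/D RNAs, stood at 12.8, 13.1 and 19.8 CPM against 6.18, 4.78 and 6.23 CPM, a log2 fold difference of 1.41 ± 0.25 (adjusted p = 0.00755 in edgeR). Snhg18 rose by 2.07 and 1810032O08Rik, the table's name for Snhg16, by 1.67 (edgeR adjusted p of 0.00656 and 0.00947). The 3 that did not pass, named after their values were seen, were Snhg4 (0.99), Snhg6 (0.46) and 2410004N09Rik (0.70), with edgeR adjusted p of 0.171, 0.107 and 0.0614.

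The liver count of hosts changed with the libraries and with offsets for length and GC content together. It was 12 of 19 with the length and GC offsets (10.1% of all genes called higher), 7 without TA 2 or without TA 3 and 10 without CCNE-TA 1. The share of all genes called without a library is not given here. Fits with fewer libraries can call fewer genes of any kind, so these counts do not show a change particular to the hosts. The log2 fold change of AA465934 without any 1 liver library stayed between 3.84 and 4.12. That is an effect size and not a count of calls, and the hosts' fold changes without a library were not compared with it.

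In kidney 0 of 20 hosts passed edgeR (1 higher at an unadjusted p under 0.05, 0 by DESeq2), with a median log2 fold change of 0.06 and a highest value of 1.18, that of Gm11974. At that unadjusted p 324 of all 15247 tested kidney genes differed, in either direction. In lung 0 of 20 passed (0 at an unadjusted p under 0.05, 0 by DESeq2), with a median of 0.14 and a highest value of 0.69. AA465934 lay above every host that edgeR tested, at 2.53 in kidney and 2.31 in lung, an order that tests nothing, since its fold changes chose it. Snhg1 in kidney stood at 21.0, 18.8 and 21.1 CPM in CCNE-TA and at 16.9, 18.4 and 17.6 CPM in TA, a log2 fold difference of 0.20 ± 0.17 (adjusted p = 0.999 in edgeR). Over the 18 libraries with tissue means removed, the r of AA465934 with the 19 hosts tested in all tissues had a median of 0.68 and ran from 0.38 to 0.87, with Gm11974 and Snhg1 above 0.8. Within groups the median was 0.54, with a range from 0.21 to 0.88, against -0.03 over all genes, and the highest was that of Snhg6. In lung Snhg6 stood at 6.80, 10.3 and 11.4 CPM in CCNE-TA and at 10.2, 10.7 and 5.53 CPM in TA, and Snhg1 at 15.4, 22.9 and 26.5 CPM and at 21.9, 20.7 and 14.04 CPM. Both were lowest in CCNE-TA 1 and TA 3, the libraries that stand apart and in which AA465934 was lowest too, and the part of these libraries in the within-group values was not tested.

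**Figure D4:**
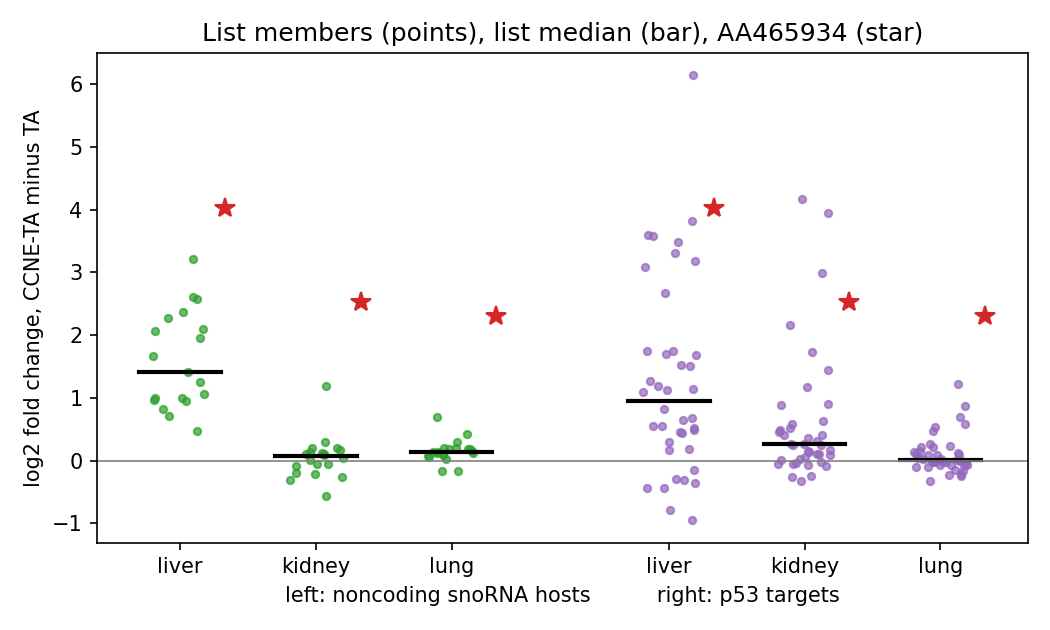
Log2 fold change, CCNE-TA minus TA, of each tested noncoding snoRNA host (left, green) and p53 target (right, purple) by tissue, with the list's median as a bar and AA465934 as a red star. AA465934, chosen by its fold changes, lies above every host shown in each tissue. Among the p53 targets only Psrc1 exceeds it in liver, some do in kidney and none in lung.

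Protein-coding hosts, found by their introns in the annotation, were called in both directions in liver: 11 of 57 tested were higher and 7 lower, where 13.7% of all genes were higher and 14.8% lower, and the median log2 fold change was -0.08. The balance turned to 6 higher and 8 lower with the replicate block and to 5 and 9 with the length and GC offsets. By the same annotation rule 12 of 14 tested noncoding hosts were higher in liver, with a median of 1.09, against 6 of 14 with a median of 0.80 with the offsets, where 10.1% of all genes were higher. The 9 genes of the box C/D core particle and its assembly did not pass in any tissue (0 higher by edgeR, 0 at an unadjusted p under 0.05, 0 by DESeq2), with medians of -0.03 in liver, 0.00 in kidney and -0.03 in lung. Of its core proteins, Nop56 had a log2 fold change of 0.57 and Nop58 of -0.38 in liver (edgeR adjusted p of 0.223 and 0.325). Of the 12 factors of nonsense-mediated decay, 2 were lower in liver, near the 14.8% of all genes, Upf2 (-0.81, edgeR adjusted p = 0.0112) and Smg8 (-0.77, edgeR adjusted p = 0.0253). In kidney and lung 0 of the 12 passed (0 higher at an unadjusted p under 0.05, 0 by DESeq2).

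Genes of mitosis and proliferation were higher in CCNE-TA livers. Of the 15 on this list 13 passed in liver, where 13.7% of all genes were higher, with a median log2 fold change of 2.59, and the medians of 2.17 in kidney and 1.0 in lung came with 0 genes passing edgeR (11 and 11 higher at an unadjusted p under 0.05, 9 and 2 by DESeq2). Over all genes DESeq2 called 0.127% higher in kidney and 0.0907% in lung. At an unadjusted p under 0.05, 324 of 15247 kidney genes and 614 of 16823 lung genes differed, in either direction. Of the 15 G1/S genes 2 passed edgeR as higher in liver and 0 in each other tissue (liver, kidney and lung held 5, 3 and 1 at an unadjusted p under 0.05, and 3, 0 and 0 by DESeq2), with medians of 0.62, 0.31 and 0.45. Over all liver genes 5911 of 13811 differed in either direction at an unadjusted p under 0.05, and DESeq2 called 15.1% higher. Mki67 stood at 66.3, 42.9 and 60.6 CPM in lung CCNE-TA and at 13.6, 18.9 and 13.7 CPM in lung TA, a log2 fold difference of 1.88 ± 0.22 (adjusted p = 0.607 in edgeR). Within groups 0 of the 15 mitosis genes passed with AA465934 (exact permutation, 6 at an unadjusted p under 0.05, median r = -0.23), and for Mki67 the r was -0.17 (exact p = 0.364, adjusted p = 0.699). Without lung TA 2 or without lung TA 3 the count was 8.

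The genes reported around AA465934 had smaller fold changes between the genotypes than AA465934 itself. AA465934 was chosen by its fold changes, so this order tests nothing. AI450353, a noncoding RNA whose RefSeq span (chr11:83293430-83294929) overlaps AA465934 by 1208 bp, stood at 0.482, 0.258 and 0.307 CPM against 0.223, 0.297 and 0.114 CPM in liver. It did not pass in any tissue (0.71, 0.39 and 0.19, edgeR adjusted p of 0.385, 0.999 and 1.0). Of the 383 exon bases of the longest form with both introns removed, 117 (30.5%) lie inside that span, the kit does not mark the strand, and how reads shared by both genes were counted is not stated. The value of AA465934 is therefore uncertain at its last exon.

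Of the 16 table genes reported here with a body within 250 kb, edgeR tested 9 in liver, of which 1 passed, 12 in kidney and 15 in lung, of which 0 passed. At an unadjusted p under 0.05 there were 4, 1 and 2 in these tissues, and by DESeq2 2, 0 and 0. Among all tested genes 5911 of 13811, 324 of 15247 and 614 of 16823 had such an unadjusted p, in either direction. DESeq2 called 15.1% of liver genes higher. Over all liver genes 13.7% were higher and 14.8% lower by edgeR, so 1 of 9 is no more than that share. The one that passed edgeR was Slfn4 of the Schlafen family (3.01 ± 0.91, edgeR adjusted p = 0.0419), at 3.94, 0.821 and 6.90 CPM in CCNE-TA and 0.525, 0.0811 and 0.825 CPM in TA, where the groups overlapped. Ccl5, a chemokine gene named after its values were seen, separated the genotypes in all 3 tissues, with log2 fold changes of 2.53, 2.17 and 1.49 in liver, kidney and lung. It did not pass edgeR (adjusted p of 0.0923, 0.999 and 1.0) and passed DESeq2 in liver alone (adjusted p of 0.0437, 1.0 and 0.0662). Its liver values were 9.62, 15.5 and 21.9 CPM in CCNE-TA and 6.43, 0.973 and 0.569 CPM in TA. Within 100 kb, Ap2b1, an adaptor subunit of endocytosis, had log2 fold changes of -0.58, 0.03 and 0.01 in liver, kidney and lung, and AI662270 had 0.39, 0.77 and 0.65. Slfn14, a Schlafen gene that was tested in lung alone, had 1.19, and Slfn3, tested in kidney and lung, had -0.12 and 0.66. These genes within 100 kb had edgeR adjusted p of 0.0652 or more.

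**Figure D5:**
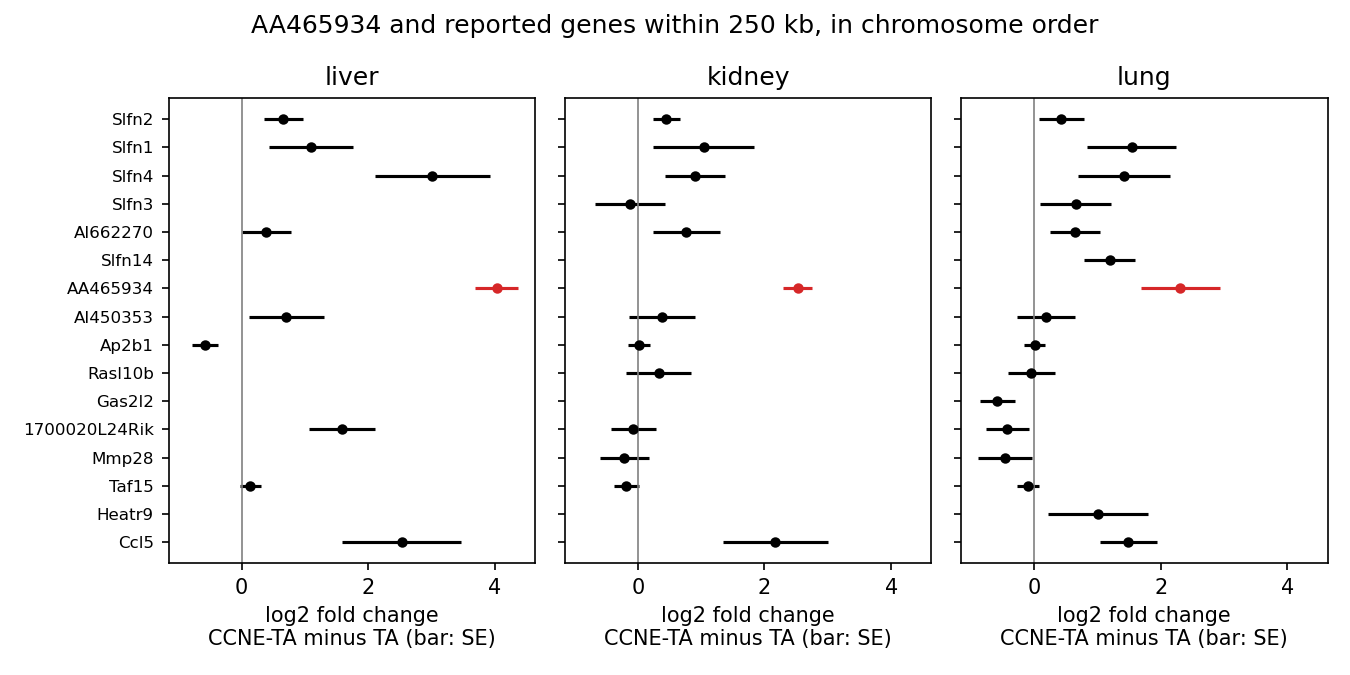
Log2 fold change, CCNE-TA minus TA, with SE as bars, of AA465934 (red) and of the reported genes within 250 kb (black), in chromosome order, in liver, kidney and lung; genes with too few reads in a tissue have no point. AA465934, chosen by its fold changes, has the highest value in each tissue, and Ap2b1 lies near or below 0.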

How the data were processed

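The authors deposited raw counts per gene symbol. Per the submitters' processing notes, the aligner was TopHat2 2.0.14 over Bowtie2 2.2.6 on mm10, and reads were counted with featureCounts 1.4.6 of Subread. The annotation, strand setting and handling of shared reads are not given in the sources used here. Per the labels, the TruSeq version of the library kit does not mark the strand. A liver library held 26214869 to 61954486 counts, one of kidney 20352770 to 43202066 and one of lung 41597623 to 155323865. Even numbers made up 64.2% to 71.2% of counts from 1 to 20, so reads are not independent molecules and counting limits cover counting error only.

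Each tissue was fitted with edgeR 4.0.16 (R 4.3.3, filterByExpr, TMM, robust quasi-likelihood test), with Benjamini-Hochberg adjustment over all tested genes and a threshold of 0.05. The control tissues had 1 fit of the 9 TA libraries. The SE comes from the fold change and the F value. Correlations used log2 CPM with a prior count of 2. Alternatives were DESeq2 1.42.0, upper quartile scaling, no filter, all 18 libraries in 1 fit, a replicate block, a covariate for Xist, spline offsets for length and GC (4 degrees of freedom) and leaving out libraries. Liver and kidney alone for the correlations and the alternatives of the host list were added after the data were seen. The fits were tested on simulated data. Same-numbered libraries deviated together in kidney (correlations over genes of 0.31, 0.49 and 0.34), a pairing read from the data, since no label gives it, and not in liver (0.20, -0.00 and 0.08) or lung (-0.48, -0.10 and -0.59). In kidney the number also follows the level of Xist, which was low in library 3 of both genotypes.

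The gene, the lists and the tests were chosen with earlier results of these data known. Named genes were AA465934, Ccne1, up to 6 p53 targets per tissue and up to 4 members of the host, particle and decay lists in order of p, genes within 100 kb, the 8 most like AA465934 over libraries, the 5 most like it within groups, Mki67 and up to 3 mitosis genes per tissue. Of these some are not given in the text, and 1 gene within 250 kb is not reported here. Promoter sequence is from RefSeq (GRCm38.p6), transcripts from GENCODE M21.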

Additional observations from a re-analysis of the deposited data

Results flagged for a closer look

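The genotype effect on Ccne1, the gene that AA465934 was most like over the 18 libraries, differed between tissues. Its log2 fold change in lung minus that in liver was -2.22 ± 0.62 (SE), with an adjusted p of 0.0316 from the interaction term of the edgeR fit of all 18 libraries. The same difference for AA465934 was -1.72 ± 0.62, given with no test because its genotype difference chose it. For Ccne1 kidney minus liver was 1.60 ± 0.63 and lung minus kidney -3.82 ± 0.64 (SE, edgeR adjusted p of 0.109 and 0.116), so neither passed. For AA465934 kidney minus liver was -1.51, given with no test, and the order of tissues was not compared between the genes.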

How the results depend on the processing

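The log2 fold change of AA465934 stayed between 2.42 and 2.62 in kidney and between 1.88 and 2.68 in lung over all alternatives run, and in liver between 3.84 and 4.22 except with the length and GC offsets (3.31) and with TA 1 as the only control (4.37). DESeq2, run without the filter, moved the median log2 fold change of all liver genes from 0.02 to 0.16, over the genes to which it gave a p-value. With TA 1 as the only control 5 p53 targets and 0 noncoding hosts were higher in liver, and leaving out 1 library at a time gave 7 to 16 hosts. With Xist as a covariate 19 p53 targets and 15 noncoding hosts were higher in liver, against 19 and 16 without it. In kidney p53 targets higher were 4 with DESeq2 and 1 each with Xist as a covariate, with all 18 libraries and with the replicate block, and in lung 1 with DESeq2. The replicate block changed no other call in kidney. Ccne1 in lung passed with DESeq2 (4.63) and with all 18 libraries (4.62). In control tissues lung minus liver passed with DESeq2 (1.29), with upper quartile scaling (1.62) and in 1 of the fits without 1 library, which ran from 0.79 to 1.59. Within groups the r of AA465934 with Ccne1 was -0.27 in liver and kidney alone and -0.47 to 0.79 without 1 library, with -0.47 without lung TA 3. The count of p53 targets with a within-group relation was 0 with Spearman's rho, 0 in liver and kidney alone, 0 with the replicate block and 0 to 4 without 1 library, and of mitosis genes 1 in liver and kidney alone and 0 to 8 without 1 library. The cause of these changes was not tested. Depth limits the control livers most, at 12 to 15 reads of AA465934.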
